A study of Mus musculus with 9 samples.

Results

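A set of 10 genes that mark neutrophils were followed across sorted mouse prostate cells: S100a8, S100a9, Ngp, Camp, Ltf, Lcn2, Mpo, Elane, Csf3r and Cxcr2. They were found by the gene name printed on the array, where Elane is listed as Ela2 and Cxcr2 as Il8rb. Together they had 12 of the 41174 probes and made up 10 of the 27670 genes or transcripts on the array. Ltf and Cxcr2 had 2 probes each.

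Neutrophils carry their weapons in granules that are filled in order as the cell matures in bone marrow. Primary granules hold the peroxidase made from Mpo and the elastase made from Elane, and secondary granules hold lactoferrin (Ltf), cathelicidin (Camp), neutrophilic granule protein (Ngp) and lipocalin (Lcn2). S100a8 and S100a9 encode the subunits of calprotectin, a zinc-binding and calcium-binding protein abundant in neutrophil cytosol and also made by monocytes and some stressed epithelia. Csf3r is the receptor for granulocyte colony-stimulating factor, and Cxcr2 is the chemokine receptor that draws neutrophils to CXC ligands. Ltf and Lcn2 are also known as products of secretory epithelia.

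The study compared 2 cell fractions sorted by flow cytometry from freshly dissociated prostate of BL6 mice. Marker-positive cells, which the labels call stem cells, were Lin-CD44+CD133+Sca-1+CD117+ (3 arrays), and marker-negative cells were Lin-CD44-CD133-Sca-1-CD117- (6 arrays). The mice carried no stated allele or treatment, and their age, sex and number behind each array were not given. Small amounts of RNA were amplified before labelling with Cy5, and each array also carried Cy3-labelled Universal Mouse Reference RNA from Stratagene, with no dye swap. Every level here is a log2 ratio of Cy5 to Cy3 for a probe, so levels are compared between arrays within a probe and not between genes. In such bulk samples, fewer cells of a type and less RNA per cell cannot be told apart.

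Cy5 was well above background on 45.5% to 69.5% of probes, lowest on marker-positive replicate 3 (45.5%) and marker-negative replicate 3 (47.5%). Marker-positive replicate 3 stood apart, with a mean correlation across probes of 0.60 with its own group and 0.59 with the other. Results were therefore also computed without each of these arrays. Whether the arrays of a group stand for separate animals is not stated, so each p-value reflects only the array-to-array spread, which could be technical, and 9 arrays limit its precision. A probe was tested only where at least 3 arrays showed Cy5 well above background, by limma's moderated test with Benjamini-Hochberg adjustment and a threshold of 0.05. Of the 10 genes, 6 were tested: S100a8, S100a9, Ltf, Lcn2, Mpo and Csf3r. Ngp, Camp, Elane and Cxcr2 fell below this detection limit, so the label neutrophil rests here on only some of its defining genes.

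Csf3r was the only one of the 6 tested genes that was called, and it was higher in marker-positive cells. Over all 19851 genes tested, 3.24% were called in either direction, with 312 higher (1.57%) and 332 lower (1.67%). None of the 6 was called lower. The share of all genes called was 7.21% without marker-positive replicate 3 and 2.72% without marker-negative replicate 3. Csf3r was also the only one of the 6 with no overlap between groups, which 11.6% of all genes tested shared (5.14% with marker-positive higher). The plot of all members by array shows that S100a8 and S100a9 instead stood far above their other values on 1 array of each group.

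**Figure D1:**
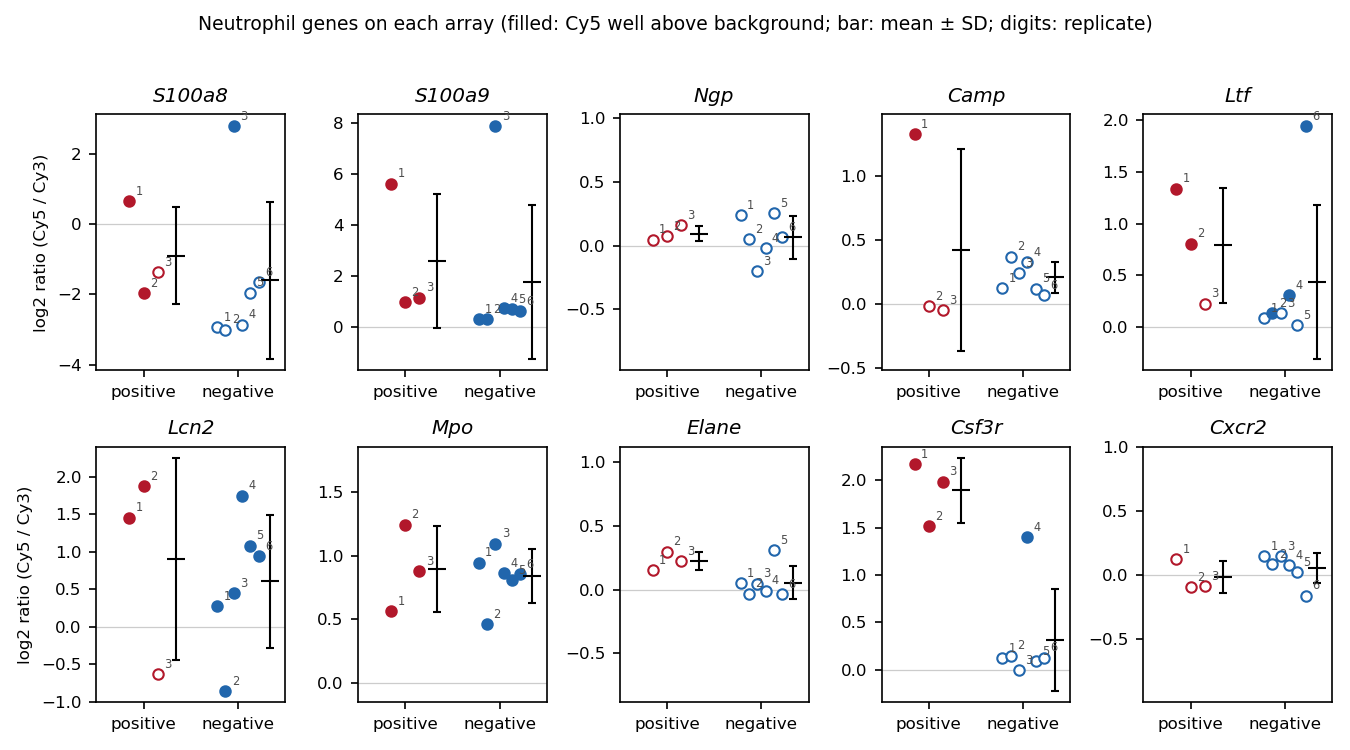
Log2 ratio of Cy5 to Cy3 for the 10 neutrophil genes on each array (red, 3 marker-positive; blue, 6 marker-negative), with the mean and SD of each group beside the points, the replicate number above each point and a separate vertical scale for each gene. Filled points were well above background in Cy5. Csf3r is the only gene with filled points on all marker-positive arrays and no overlap between groups, and S100a9 reached 5.62 on marker-positive replicate 1 and 7.89 on marker-negative replicate 3.

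The calprotectin genes varied more from array to array than between the sorted groups. Their promoters are shown because the pair moved together, with that of Csf3r beside them, which followed another pattern. Each sequence gives the 250 bases before the RefSeq transcript start (GRCm38.p6), 5′ to 3′ on the strand of the gene, at chr3:90668821-90669070 (+) for S100a8, chr3:90695722-90695971 (-) for S100a9 and chr4:126024409-126024658 (+) for Csf3r. Capitals mark matches, on either strand, to TTNNGNAA (a core of C/EBP sites) or AGGAAGT (a core of PU.1 sites), which are the binding motifs of factors known to act in granulocytes.
S100a8: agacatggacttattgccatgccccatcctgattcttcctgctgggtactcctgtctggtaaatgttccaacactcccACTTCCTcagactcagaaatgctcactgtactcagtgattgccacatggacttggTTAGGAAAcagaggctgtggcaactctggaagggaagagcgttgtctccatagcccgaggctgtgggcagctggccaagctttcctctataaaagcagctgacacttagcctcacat
S100a9: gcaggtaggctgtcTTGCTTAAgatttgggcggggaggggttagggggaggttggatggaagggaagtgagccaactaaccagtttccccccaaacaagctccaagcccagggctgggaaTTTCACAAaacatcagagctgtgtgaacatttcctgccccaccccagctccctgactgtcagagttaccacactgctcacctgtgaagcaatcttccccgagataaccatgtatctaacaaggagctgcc
Csf3r: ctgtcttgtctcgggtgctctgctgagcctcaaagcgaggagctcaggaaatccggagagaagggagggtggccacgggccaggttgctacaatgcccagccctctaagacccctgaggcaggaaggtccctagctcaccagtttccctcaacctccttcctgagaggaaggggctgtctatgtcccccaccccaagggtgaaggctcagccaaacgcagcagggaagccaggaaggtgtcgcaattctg

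S100a8 held a C/EBP match 117 bases and a PU.1 match 172 bases before the start, and S100a9 held C/EBP matches at 236 and 130 bases. No match lay in the Csf3r window. Among all 10 genes, 5 held the C/EBP letters and 3 the PU.1 letters, while 36.8% and 7.69% of 32851 mouse promoter windows of this length held them. The 2 motifs do not overlap in these windows, and a match describes letters, not binding.

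S100a9 (NM_009114; probe on chromosome 3, 90822865 to 90822924, mm7) had log2 ratios of 5.62, 0.95 and 1.14 on marker-positive replicates 1 to 3. On marker-negative replicates 1 to 6 they were 0.30, 0.30, 7.89, 0.73, 0.70 and 0.60. Marker-positive replicate 1 and marker-negative replicate 3 were thus far above the other 7 arrays, and the groups overlapped. The raw Cy5 signal was 8674.5 and 8630.1 on those arrays, and 116 to 275 on the others, while Cy3 stayed between 80.3 and 105. The whole span of the ratios was 7.59 on the log2 scale, or 193-fold. The mean was 2.57 ± 2.65 (SD, n = 3) in marker-positive and 1.75 ± 3.01 (SD, n = 6) in marker-negative cells, a difference of 0.82 (SE 1.75, limma adjusted p = 0.853, 95% interval -3.10 to 4.73).

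S100a8 (NM_013650; probe on chromosome 3, 90800058 to 90800117), which encodes the partner subunit, had log2 ratios of 0.65, -1.98 and -1.36 on the marker-positive arrays. On marker-negative replicates 1 to 6 they were -2.93, -3.01, 2.79, -2.86, -1.95 and -1.66. The same arrays of each group were the highest, and the groups again overlapped. Cy5 was well above background on 2 of 3 marker-positive arrays and on 1 of 6 marker-negative arrays, so most low values only bound the level. The span was 5.80 on the log2 scale (55.6-fold). The difference between group means was 0.71 (SE 1.22, limma adjusted p = 0.811, 95% interval -2.02 to 3.44).

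The sign of both differences changed when marker-positive replicate 1 alone was left out. The S100a8 difference was then -0.063 and the S100a9 difference -0.71, with the high marker-negative replicate 3 still included. Without marker-negative replicate 3 they were 1.59 and 2.05, and neither was called (limma adjusted p = 0.201 and 0.287). Slide 1 held marker-positive replicate 1 and marker-negative replicate 1, and there the differences were 3.58 and 5.32. On slide 2, which held marker-negative replicates 2 and 4 with marker-positive replicate 2, they were 0.96 and 0.43. The other slides held a single group.

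After each gene was centred on its own mean, the profiles of S100a8 and S100a9 differed by a root mean square of 0.96 on the log2 scale over the 9 arrays. Of 16080 other genes, the 8 nearest to the mean of the pair were Kcne3 (0.98), Gal3st4 (1.24), Larp6 (1.27), Irf7 (1.28), Adra1b (1.29), Tctex1d4 (1.32), Omp (1.38) and Misp (1.39). All 8 were highest on marker-negative replicate 3, where Kcne3, a potassium channel subunit, had a log2 ratio of 6.05. Larp6 (2.25) and Adra1b (2.19) were also high on marker-positive replicate 1, and Tctex1d4 (0.08) and Misp (0.44) were not. On marker-positive replicate 2 the mean of the S100 pair was -0.51, against 3.14 on replicate 1. Larp6 (2.06), Adra1b (1.34), Kcne3 (2.11) and Gal3st4 (1.88) were high on replicate 2 too. They thus did not set these arrays apart as the S100 pair did. The likeness thus rests mainly on 1 array.

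**Figure D2:**
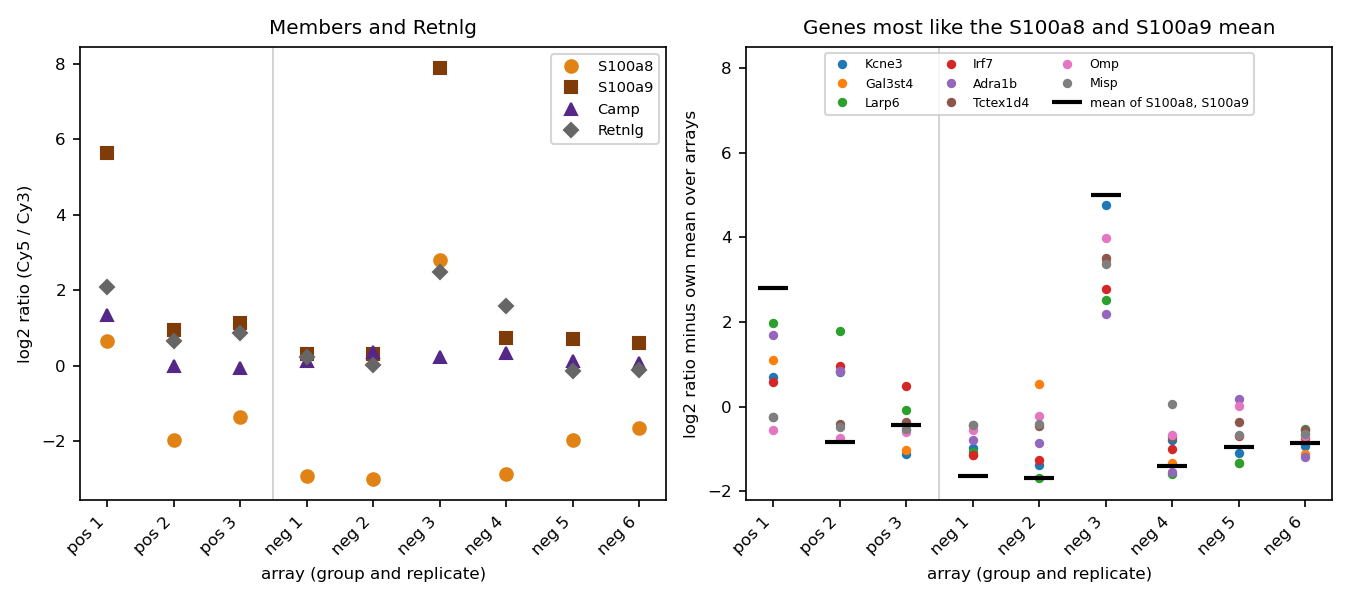
Left, log2 ratio of Cy5 to Cy3 for S100a8, S100a9, Camp and Retnlg on each array (pos, marker-positive; neg, marker-negative). Right, log2 ratio minus the gene's own mean over the 9 arrays for the 8 genes nearest to the mean of S100a8 and S100a9 (black bars). The S100 genes are highest on pos 1 and neg 3, Camp only on pos 1 (1.33), and the 8 nearest genes peak on neg 3.

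Camp and Ngp, both secondary granule genes of low signal, were not high on both of the arrays where the S100 pair peaked. Camp, the cathelicidin precursor (NM_009921; chromosome 9, 109544107 to 109544166), was well above background on marker-positive replicate 1 alone, at a log2 ratio of 1.33. Its ratio was 0.24 on marker-negative replicate 3, where S100a9 was highest, and its Cy5 was at background there. Ngp (NM_008694; chromosome 9, 110119702 to 110120250) was not well above background on any of the 9 arrays, with log2 ratios from -0.20 to 0.25. Retnlg, a secreted protein abundant in mouse neutrophils, had log2 ratios of 2.09, 0.65 and 0.87 on the marker-positive arrays. On marker-negative replicates 1 to 6 it stood at 0.22, 0.03, 2.47, 1.57, -0.13 and -0.13, so replicate 3 was again the highest. Its difference was 0.53 (SE 0.61, limma adjusted p = 0.694). Like Retnlg, the genes Mmp9, Clec4d and Clec4e described further on had the highest value of each group on marker-positive replicate 1 and marker-negative replicate 3.

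The lists of other cell types were also uneven over these arrays. On marker-negative replicate 3 the mean log2 ratio of 7 mast cell and basophil genes was 2.68, against 0.17 to 0.58 on the other marker-negative arrays and 3.28 to 4.04 on the marker-positive arrays. The mean of 3 erythroid genes was 5.63 there, against 3.66 to 4.35 on the other marker-negative arrays. On marker-positive replicate 1 the mean of 11 monocyte and macrophage genes was 4.14, close to 4.09 on replicate 3, where S100a9 was low. The part of these cell types in the S100 values was not tested.

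Lactoferrin and lipocalin transcripts were detected in both groups and were not called. Ltf (NM_008522) on its brighter probe (chromosome 9, 110738071 to 110738130) had log2 ratios of 1.34, 0.80 and 0.23 on the marker-positive arrays. On marker-negative replicates 1 to 6 they were 0.09, 0.14, 0.14, 0.31, 0.02 and 1.94. Marker-negative replicate 6 was therefore the highest of all, and its value was outside the range of the other marker-negative arrays. Cy5 was well above background on 2 of 3 marker-positive and 3 of 6 marker-negative arrays, so the remaining values only bound the level. The difference was 0.35 (SE 0.43, limma adjusted p = 0.715, 95% interval -0.61 to 1.31). It was 0.078 without marker-positive replicate 1 and 0.65 without marker-negative replicate 6 (limma adjusted p = 0.173), and was 1.25 within slide 1 and 0.58 within slide 2. The second probe, whose listed span is 110733462 to 110736512, gave 0.09 (SE 0.18, limma adjusted p = 0.834).

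Lcn2 (NM_008491; chromosome 2, 32392828 to 32393072), an iron-siderophore-binding protein, had log2 ratios of 1.46, 1.88 and -0.63 on the marker-positive arrays. On marker-negative replicates 1 to 6 they were 0.28, -0.85, 0.45, 1.75, 1.08 and 0.94. High and low arrays occurred in both groups. Cy5 was well above background on 2 of 3 marker-positive and 6 of 6 marker-negative arrays. It was not on marker-positive replicate 3, so the value there only bounds the level. The difference was 0.29 (SE 0.66, limma adjusted p = 0.861, 95% interval -1.18 to 1.77), and it was -0.64 with the scanner's processed signals. Among the luminal and duct epithelium genes, 2 of 10 were lower in marker-positive cells and none was higher. The list mean was 0.10 on marker-positive replicate 3, the array without detected Lcn2, and 2.96 to 4.26 on the others. The part of epithelial cells in the Ltf and Lcn2 values was not tested.

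Primary granule transcripts gave no called difference among the members. Mpo, the myeloperoxidase gene (NM_010824; chromosome 11, 87873508 to 87874283), was detected on all 9 arrays. Its log2 ratios were 0.57, 1.24 and 0.88 in marker-positive and 0.95, 0.46, 1.09, 0.86, 0.81 and 0.86 in marker-negative cells. The groups overlapped over the whole marker-negative span except its lowest value. The difference was 0.06 (SE 0.27, limma adjusted p = 0.941), with a 95% interval of -0.55 to 0.67. Elane, the neutrophil elastase gene (NM_015779; chromosome 10, 79668034 to 79668093), was not well above background on any array in either channel, so its level could not be compared.

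Csf3r (NM_007782; chromosome 4, 125488697 to 125488756, mm7) had log2 ratios of 2.17, 1.51 and 1.98 on the marker-positive arrays. On marker-negative replicates 1 to 6 they were 0.12, 0.15, -0.01, 1.40, 0.09 and 0.13. All marker-positive arrays exceeded every marker-negative array, and marker-negative replicate 4 lay close below them. Cy5 was well above background on 3 of 3 marker-positive arrays and, among marker-negative arrays, on replicate 4 alone, so Csf3r was tested through its high group. The means were 1.89 ± 0.34 (SD, n = 3) and 0.31 ± 0.54 (SD, n = 6). The difference was 1.58 (SE 0.30, limma adjusted p = 0.0250, 95% interval 0.90 to 2.25), or 2.98-fold. In the authors' deposited table the log2 difference of stem over non-stem cells for this probe was 1.58, with an adjusted p of 0.00563.

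The size of the Csf3r difference depended on the background correction. Cy3 was not well above background on any array, and Cy5 was on 4. It was 2.21 with an offset of 16 in place of 50 and 4.33 with processed signals, and both were called (limma adjusted p = 0.0308 and 0.0411). With slide as a fixed block it was 1.30 and was not called (limma adjusted p = 0.265). The difference was 2.05 within slide 1 and 0.74 within slide 2, which holds marker-negative replicate 4. The call ended without marker-positive replicate 1 (1.43, limma adjusted p = 0.119) or 2 (1.76, 0.0548), and without marker-negative replicate 1 (1.54, 0.0583), 2 (1.54, 0.0525) or 5 (1.53, 0.0550). It held without marker-positive replicate 3 (1.53, limma adjusted p = 0.0426) and without marker-negative replicate 3, 4 or 6 (1.51 to 1.79).

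**Figure D3:**
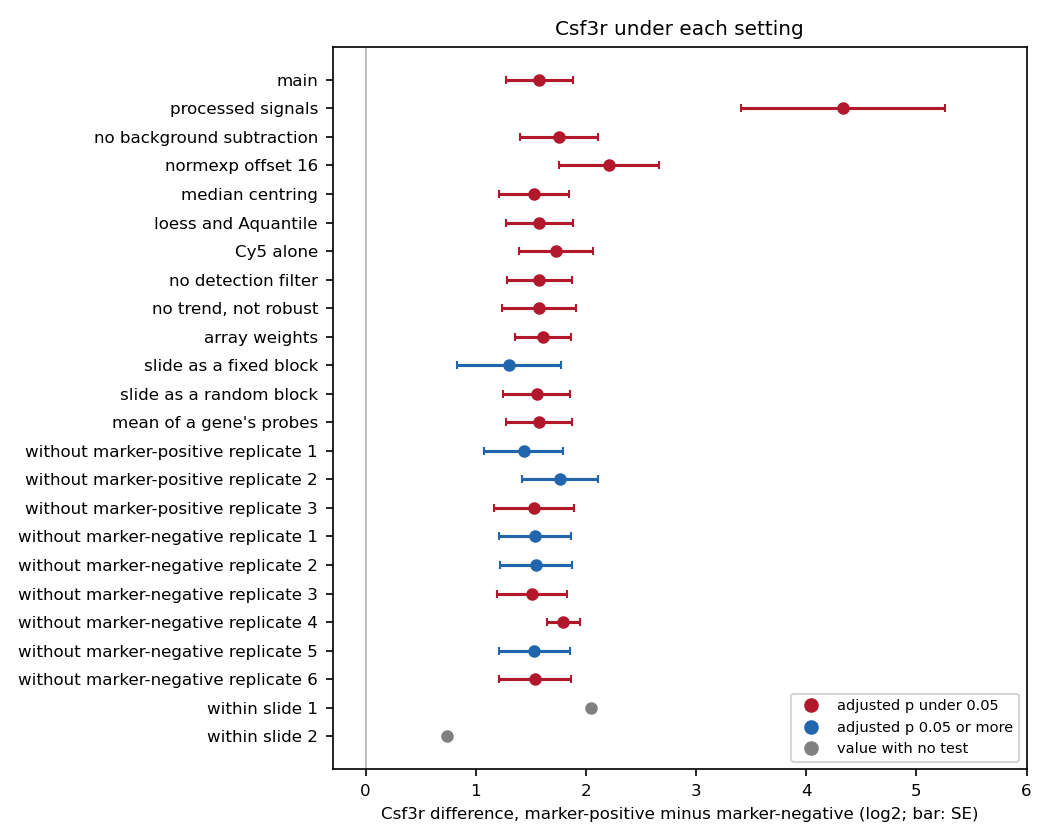
Csf3r difference in log2 ratio, marker-positive minus marker-negative, under each processing setting, with each array left out and within the slides that held both groups. Bars are standard errors, red marks a limma adjusted p under 0.05, blue one that did not pass, and grey a value with no test. All values are above 0, from 0.74 within slide 2 to 4.33 with processed signals.

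Marker-negative replicate 4, the array with a detectable Csf3r signal in its group, also had the highest mean of the pan-leukocyte genes among marker-negative arrays (2.10, against -1.75 to 1.95 on the others). Its mean for the NADPH oxidase subunits was 2.64, against -1.81 to 2.55. Marker-negative replicate 6, with a pan-leukocyte mean of 1.95, had a Csf3r ratio of 0.13. The part of other leukocytes in the Csf3r difference was not tested. Monocytes and macrophages are also known to express Csf3r, and 3 of 11 genes of their list were higher in marker-positive cells: Cd163 and Mrc1, scavenger and mannose receptors of tissue macrophages, and the chemokine receptor Ccr2 (3.80, SE 0.69, limma adjusted p = 0.0205). No marker-negative array had Cd163 or Mrc1 well above background, so both were tested through their high group and their differences are set against background. On marker-positive arrays their log2 ratios were 5.59 to 6.21 and 5.30 to 7.17. Csf1r, the receptor for macrophage colony-stimulating factor, gave 1.67 (SE 0.83, limma adjusted p = 0.304). The list's mean was 3.34 to 4.14 on marker-positive and 0.76 to 2.84 on marker-negative arrays. Its median difference was 0.91, and 8 of the 11 genes were not called, among them C1qa (0.47), C1qb (0.75) and C1qc (0.16). Cx3cr1 (-0.52) and Mertk (-0.40) had negative differences.

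Cxcr2 (NM_009909) was not well above background on any array with either probe (chromosome 1, 74402562 to 74402621 and 74401999 to 74402058). Its log2 ratios lay between -0.16 and 0.33 over both probes, with no level to compare. Of the 7 genes for ligands of Csf3r and Cxcr2, all had a positive difference and none was called. Csf3, which encodes granulocyte colony-stimulating factor, had log2 ratios of 2.21, 2.58 and 0.02 on the marker-positive arrays and -0.13 to 0.66 on the marker-negative arrays. Marker-positive replicates 1 and 2 were high and replicate 3 was at the marker-negative level, and the difference was 1.35 (SE 0.47, limma adjusted p = 0.152). Cxcl3, a CXC chemokine, gave 1.88 (SE 0.75, limma adjusted p = 0.205), Cxcl15 0.22 (0.408) and Ppbp 0.45 (0.492). Without marker-positive replicate 3, Csf3 and Cxcl3 were called higher, when 7.21% of all genes tested were called. Csf3 was well above background on 2 marker-positive arrays and 1 marker-negative array, and Cxcl3 on 2 arrays of each group. Both differences are thus set against signal near background.

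Genes outside the members were read from lists of the same granules and compartments. Of 10 tested genes on the secondary and tertiary granule list, 4 were higher in marker-positive cells and none was lower. The median difference was 1.86 on the log2 scale, against -0.01 over all genes tested. Mmp9, the gelatinase of tertiary granules, was higher by 5.84 (SE 0.60, limma adjusted p = 0.00168). Its log2 ratios were 4.77, 2.80 and 2.22 on marker-positive arrays and -3.30 to -1.29 on marker-negative arrays. Cy5 was well above background on 3 of 3 marker-positive and at most 1 of 6 marker-negative arrays, so Mmp9 was tested through its high group and its difference is set against signal near background. Lyz2, a lysozyme of neutrophils and macrophages, was higher by 4.88 (SE 0.90, limma adjusted p = 0.0215), and Adam8, a membrane metalloprotease, by 3.34 (SE 0.59, limma adjusted p = 0.0172). Padi4, which converts arginine to citrulline in histones, was higher by 1.18 (SE 0.26, limma adjusted p = 0.0416). Of the 10 differences 9 were positive, and 6 genes were not called. Among those 6 were Cd177 (-0.05, SE 0.13, limma adjusted p = 0.895) and Itgb2l (0.02, SE 0.12, 0.958). Mmp8, the neutrophil collagenase, and Fcnb, a ficolin, were not tested because their signal was too low. Mmp9, Lyz2 and Adam8 are also known in macrophages. The macrophage list means given above were higher on the marker-positive arrays, with 3 of the 11 genes called. The part of macrophages here was not tested.

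Haptoglobin (Hp), a further secondary granule gene, had log2 ratios of 2.36, 2.01 and 2.94 on the marker-positive arrays. It stood at -0.44, -3.66, 2.96, -3.44, -2.57 and -0.08 on marker-negative replicates 1 to 6. Marker-negative replicate 3, the array with the S100 peak, reached the marker-positive level. Its difference was 3.64 (SE 1.31, limma adjusted p = 0.162), and Hp was called when that array was left out. The count of the list was then 5 higher of 10, when 2.72% of all genes tested were called. It was 4 without marker-positive replicate 3 (7.21% of all genes tested), where Chil3 was called and Padi4 was not.

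Of 6 tested primary granule and progenitor-stage genes, 1 was higher and none lower, with a median of 0.19. Ctsg, the cathepsin G gene expressed in neutrophil precursors and mast cells, was higher by 2.18 (SE 0.51, limma adjusted p = 0.0499). That call ended without marker-positive replicate 3. Of 7 tested mast cell and basophil genes, 3 were higher: Tpsb2 (2.45), Fcer1a (3.81) and Cpa3 (5.73), a tryptase, an IgE receptor chain and a carboxypeptidase. Mcpt4, a mast cell chymase, gave 3.41 (SE 0.92, limma adjusted p = 0.0775). Without marker-negative replicate 3, 5 of the 7 were higher, with Mcpt4 and Cma1 added, when 2.72% of all genes tested were called. Without marker-positive replicate 3 (7.21% of all genes tested called) the count was 3, with Tpsab1 in place of Cpa3. On marker-negative replicate 3, Ctsg had its highest marker-negative log2 ratio (2.75) and Cpa3 had 5.29, and the part of mast cells in the Ctsg value was not tested. Serpinb1a, an inhibitor of granule proteases, gave 0.44 (SE 0.55, limma adjusted p = 0.723). Prtn3, the proteinase neighbour of Elane in primary granules, was -0.05 (SE 0.19, limma adjusted p = 0.920), with groups that overlapped. Srgn, the granule proteoglycan serglycin, gave 1.57 (SE 0.80, limma adjusted p = 0.321), and Gfi1, a granulocyte transcription factor, -0.99 (SE 0.92, 0.612).

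Of 16 tested genes of the mature neutrophil surface and cytosol, 2 were higher and 1 was lower, with a median of 0.58. Clec4d, a C-type lectin of myeloid cells, was higher by 3.94 (SE 0.58, limma adjusted p = 0.00772), and Fpr2, a formyl peptide receptor, by 1.27 (SE 0.27, limma adjusted p = 0.0354). Fpr2 was likewise well above background on at most 1 of 6 marker-negative arrays, so its difference is also set against signal near background. Stfa3, a cysteine protease inhibitor of the stefin A family, was lower by 2.60 on the log2 scale, as a difference of -2.60 (SE 0.52, limma adjusted p = 0.0287). Its log2 ratio was 5.02 on marker-negative replicate 3 and 2.50 to 3.41 on the other marker-negative arrays. Stefin A genes are near-identical copies, so the probe may not tell them apart. Clec4e was next, with 2.21 (SE 0.55, limma adjusted p = 0.0612). Without marker-positive replicate 3 (7.21% of all genes tested called), 4 genes of the list were higher, Clec4e and Hdc with Clec4d and Fpr2. Without marker-negative replicate 3, Clec4e was called and Fpr2 was not.

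None of the 6 NADPH oxidase subunits, which make the neutrophil and macrophage oxidative burst, was called, although all differences were positive with a median of 1.28. Ncf1, a cytosolic subunit, gave 1.36 (SE 0.84, limma adjusted p = 0.417), with log2 ratios from 0.54 to 3.40 on marker-positive and -1.50 to 2.20 on marker-negative arrays. Cyba, a membrane subunit, gave 1.33 (SE 0.93, limma adjusted p = 0.481), and Ncf4, a cytosolic one, 1.23 (SE 0.90, 0.499). None of the 7 pan-leukocyte genes was called, with a median of 0.26. The smallest adjusted p were those of Laptm5 (1.92, limma adjusted p = 0.192), Cd53 (1.17, 0.5005), Coro1a (0.84, 0.613) and Vav1 (0.26, 0.896).

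Receptors and relatives of the S100 pair were measured as well. None of the 4 receptor genes was called. Ager, the receptor for advanced glycation end products, gave 0.37 (SE 0.13, limma adjusted p = 0.153), and Tlr4 0.86 (SE 0.37, 0.230). Cd36 gave 1.99 (SE 0.99, limma adjusted p = 0.308) and Cd33 0.005 (SE 0.67, 0.998). Among 12 other tested S100 genes, 2 were higher and none was lower, with a median of 1.26. S100a10, the annexin A2 partner, had log2 ratios of 2.13, 2.02 and 1.89 on marker-positive and -2.54 to -0.14 on marker-negative arrays. It was higher by 2.84 (SE 0.47, limma adjusted p = 0.0132). S100a11 was higher by 1.63 (SE 0.35, limma adjusted p = 0.0374), and was not called when either replicate 3 array was left out. On marker-negative replicate 3, where the S100a8 and S100a9 pair peaked, S100a10 was -0.59 and S100a11 -0.56, within the range of the other marker-negative arrays. S100a3 gave 0.96 (SE 0.33, limma adjusted p = 0.147) and S100a1 0.87 (SE 0.30, 0.149). Without marker-positive replicate 3, S100a14 was called higher, when 7.21% of all genes tested were called.

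**Figure D4:**
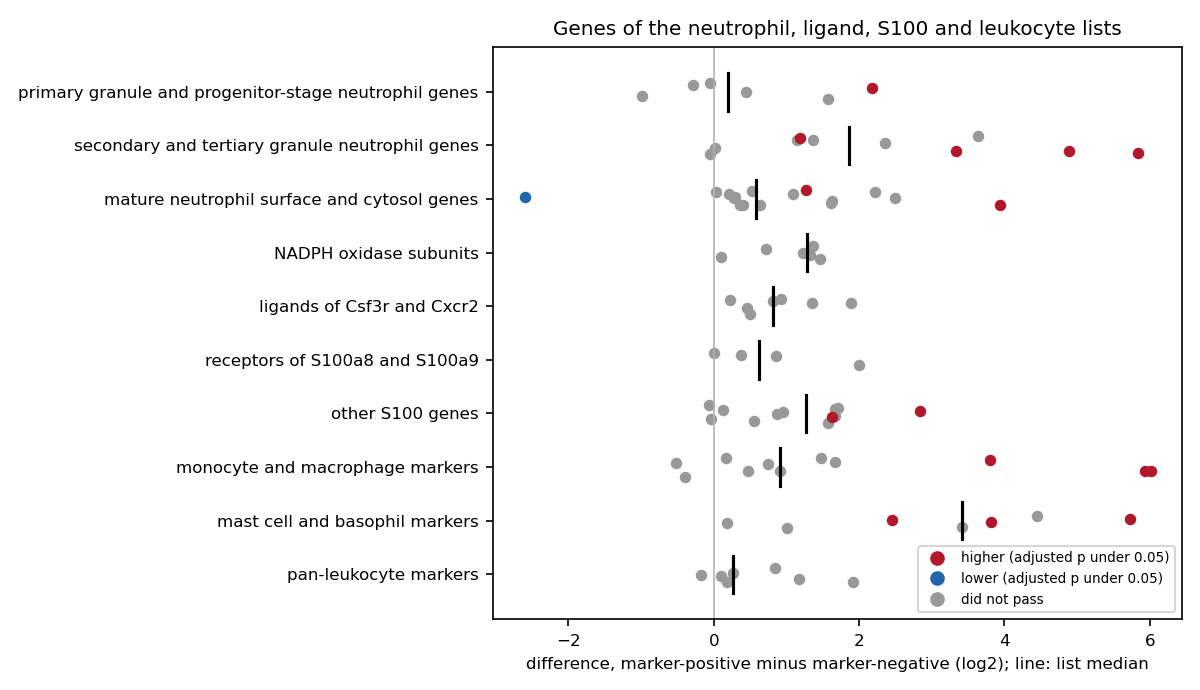
Difference in log2 ratio, marker-positive minus marker-negative, for each tested gene of the neutrophil, ligand, receptor, S100 and leukocyte lists (points), with the median of each list as a line. Red is called higher, blue called lower, and grey not called at a limma adjusted p under 0.05. The 4 called genes of the secondary and tertiary granule list lie between 1.18 and 5.84, and no NADPH oxidase or ligand gene was called.

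Epithelial genes of the prostate were detected in both fractions, beside genes of other lineages. Of 10 luminal and duct genes, Msmb and Pbsn, secretory proteins of prostate epithelium, were lower in marker-positive cells, by 5.24 and 1.99 on the log2 scale (differences of -5.24 and -1.99). Psca gave 1.61 (SE 0.48, limma adjusted p = 0.104) and was called higher without marker-positive replicate 3. Of 4 basal epithelium genes 1 was higher, Trp63 by 2.02 (SE 0.45, limma adjusted p = 0.0446), while Krt14 (1.60), Krt15 (-0.64) and Krt5 (-0.01) were not called. Of 9 lymphocyte genes, 5 were lower in marker-positive cells, although both fractions had been sorted as lineage-negative, with a list mean of -0.96 to 0.66 on marker-positive and 1.22 to 3.72 on marker-negative arrays. These were the cytotoxic granule genes Gzmb (-5.12) and Gzma (-6.65) and the T cell genes Cd3d (-5.27), Cd8a (-3.75) and Cd3g (-4.81). Of 3 erythroid genes, Alas2 (-4.04) and Hba-a1 (-3.34) were lower, and Slc4a1 (-0.50) was not called. Of 6 blood progenitor genes, Kit, which encodes the sort marker CD117, was higher by 3.45. Trp63 and Pbsn were not called without marker-negative replicate 3, nor Kit without marker-positive replicate 3. Cd34 gave 3.39 (SE 1.03, limma adjusted p = 0.109) and was called higher without that last array, while Flt3 (-0.45) and Gata2 (-0.55) were not called. Of 2 tested eosinophil genes, Prg2 (0.78) and Ccr3 (-0.30), none was called.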

How the data were processed

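Sorted prostate cells were hybridised to 9 Agilent 2-colour arrays. Spot intensity values of both channels were deposited by the authors as the scanner software wrote them: Agilent Feature Extraction, version 10.7 in the submitters' processing notes and 10.7.3.1 per the file headers. Mean and background intensities are raw, while processed intensities had background removed and dyes balanced by that software, per the file headers. Background and saturation flags also come from those files. The authors' deposited table of the comparison lists log2 values (difference and mean), each p-value before and after adjustment, and a score, the signed fold. Its normalization steps are not given in the sources used here.

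Background was corrected in limma 3.58.1 (R 4.3.3) by normexp with an offset of 50. Ratios were loess-normalized within arrays with control and outlier spots at weight 0. Outlier spots were then left out and replicate spots averaged. The fit, by lmFit and eBayes (trend on mean intensity, robust), took the 28334 of 41174 probes with Cy5 well above background on 3 or more arrays. Its tests are two-sided, with Benjamini-Hochberg adjustment over all of these probes. The brightest tested probe stands for a gene. Slides were read from the files. Coordinates are those of the files (build mm7), with no exon annotation of that build used. Genes were renamed through the RefSeq GRCm38.p6 table: 22951 probes by systematic name, 22 by accession, 6644 by symbol and 3105 by synonym, while 8452 kept their name. Promoters are RefSeq's of the same build.

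The members and lists were chosen with earlier results of these data known. All members were named, and from each list all genes of lists with 5 or fewer, otherwise up to 4 with the smallest adjusted p and called ones up to 6. Other genes were named after their values were seen: Retnlg, Hp, Hdc, Chil3, Prtn3, Cd177, Itgb2l, and members called with an array left out. Cebpe, Ly6g, Stfa1, S100z, Ly6c2, Ear2 and Hbb-b1 were not analysed here. Some list genes that the rule would name are not reported here. Alternatives covered background correction, normalization, filter, variance model, array weights, slide and each array left out, and list counts without either replicate 3 array were added after seeing the data. The test was checked on simulated data. Plots were drawn with matplotlib 3.10.9.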

Additional observations from a re-analysis of the deposited data

Results flagged for a closer look

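Among the 12 member probes, 5 had 1 marker-negative array whose gap to the nearest other array was a larger share of the range of the 6 arrays than Dixon's test allows. Chance alone gives about 1 such group in 20. On marker-negative replicate 3, S100a8 was 2.79 and S100a9 7.89 on the log2 scale, against at most -1.66 and 0.73 on the other marker-negative arrays. Ltf was 1.94 on replicate 6, against at most 0.31, and Csf3r was 1.40 on replicate 4, against at most 0.15. Elane was 0.31 on replicate 5, where its signal was not well above background.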

How the results depend on the processing

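The Csf3r difference was positive under all 23 alternatives, though Cy3 was at background for its probe, which limits how well its size is known. Genes called higher were 312 and lower 332. They were 141 and 85 with median centring, 2213 and 2261 with array weights, and 128 and 20 with slide as a fixed block. With 1 array left out they ran from 98 to 934 and from 87 to 498. The count of members called higher, 1, became 0 with slide as a fixed block and with detection required in both channels on all arrays, which leaves S100a9 and Mpo alone among the members, and was 0 to 1 with 1 array left out. No member was called lower under any alternative. With 1 array left out the differences ran from -0.063 to 1.59 for S100a8, -0.71 to 2.05 for S100a9, 0.078 to 0.65 for Ltf, -0.19 to 1.06 for Lcn2 and -0.12 to 0.22 for Mpo. They turned negative for both S100 genes without marker-positive replicate 1, for Lcn2 and Mpo without marker-positive replicate 2, and for Mpo (-0.018) without marker-negative replicate 2. Lcn2 also turned negative (-0.64) with processed signals. None of these had been called, and the cause was not tested. No paired analysis was possible because replicate numbers were given in order of deposit and pair no arrays. Slide, which joins arrays of both groups on slides 1 and 2, was fitted as a block instead.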
